A study of Mus musculus with 6 samples.

Results

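Genes of bone morphogenetic protein (BMP) and transforming growth factor beta (TGF-beta) signalling were compared between uteri of mice of 2 genotypes, Arid1a f/f and Arid1a d/d. The genes came from a list of 50 that was sorted into 6 roles: ligands, receptors, antagonists, SMAD proteins with SMURF ligases, target genes, and matrix or processing factors. A listed gene was measured where the array annotation gave at least 1 probe set its symbol alone, which held for 45 of the 50, with 95 of the 41420 probe sets. Bmp3, Tgfb3, Chrd, Id3 and Ltbp2 were not analysed here.

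Whole uteri had been taken from intact females aged 2 weeks, with 3 Affymetrix arrays of each genotype, each from 500 ng of total RNA. No agent was given to either group. Arid1a codes for a large subunit of the BAF (SWI/SNF) chromatin remodeller that binds DNA. By mouse nomenclature f/f is a floxed allele on both chromosomes and d/d its recombined, deleted form. The Cre driver, the cells in which the allele was recombined, and any pooling of animals are not given in the sources used here, and whether each array stands for its own animal is also unstated. The p-values therefore rest on the variation among these arrays, part of which may be technical. In whole tissue, fewer cells of a type and less RNA per cell cannot be told apart.

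BMP, TGF-beta, activin and growth differentiation factor ligands are secreted dimers that bring type II and type I serine/threonine kinase receptors together at the cell surface. The type I receptor then phosphorylates SMAD1, SMAD5 and SMAD9 for most BMPs, or SMAD2 and SMAD3 for TGF-beta and activin, and these enter the nucleus with SMAD4. Secreted antagonists such as follistatin and noggin bind ligands outside the cell, BAMBI is a membrane pseudoreceptor without a kinase, and SMAD6, SMAD7 and the SMURF ubiquitin ligases limit the signal inside it. In the uterus BMP signalling is best known for its roles in implantation and decidualization, and TGF-beta receptor signalling for the structure of the uterine wall.

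Levels are given as log2 of the deposited intensity, and each gene by its brightest probe set. Differences are d/d minus f/f on that scale, with the standard error from limma, and a gene was called higher or lower where the Benjamini-Hochberg adjusted p over all 16813 genes was under 0.05. Levels of different probe sets are not comparable with each other.

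The start-site regions of 3 of these genes are shown because these genes differed most among the members with a RefSeq promoter entry. The difference was below 0 for Bmp4 and Fstl3 and above 0 for Bmp5, and Fstl3 did not pass (adjusted p = 0.0529 in limma). The table held entries for 36 of the 50 listed genes, with 42 windows, and none for Bambi and Fst. Each sequence is the 250 bases before the annotated start, 5′ to 3′ on the strand of the gene, from RefSeq (GRCm38.p6). Capitals mark matches on either strand to CAGAC, the SMAD3 and SMAD4 binding element, the only one of 3 motifs searched that was found in these windows. The positions are chr14:46390670-46390919 on the minus strand for Bmp4, chr9:75775115-75775364 on the plus strand for Bmp5 and chr10:79777024-79777273 on the plus strand for Fstl3.
Bmp4: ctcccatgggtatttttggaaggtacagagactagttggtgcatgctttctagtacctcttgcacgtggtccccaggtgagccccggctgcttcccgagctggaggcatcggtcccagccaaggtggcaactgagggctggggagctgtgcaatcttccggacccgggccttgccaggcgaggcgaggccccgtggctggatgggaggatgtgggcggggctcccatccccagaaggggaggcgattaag
Bmp5: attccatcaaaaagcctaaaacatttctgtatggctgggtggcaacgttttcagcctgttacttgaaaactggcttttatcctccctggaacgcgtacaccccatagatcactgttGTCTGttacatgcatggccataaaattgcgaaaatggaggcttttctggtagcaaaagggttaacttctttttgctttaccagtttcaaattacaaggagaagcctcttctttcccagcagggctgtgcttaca
Fstl3: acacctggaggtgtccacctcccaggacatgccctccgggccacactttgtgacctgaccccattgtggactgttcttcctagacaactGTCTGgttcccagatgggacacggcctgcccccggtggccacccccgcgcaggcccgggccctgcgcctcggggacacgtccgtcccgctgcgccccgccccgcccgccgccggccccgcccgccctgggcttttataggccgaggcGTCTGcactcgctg

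The Bmp4 window held no match and had a GC content of 63.2%. The Bmp5 window had a GC content of 42.8% and 1 match, 134 bases upstream of the start. The Fstl3 window had a GC content of 71.2% and 2 matches, 161 and 14 bases upstream. CAGAC is short and frequent. It was found in 42.2% of the 32851 promoter windows of the same length and in 20 of the 42 member windows (47.6%). The palindrome GTCTAGAC, the optimal SMAD3 and SMAD4 site, was in 0.167% of all windows and in 0 of the 42. GGCGCC, a GC-rich element bound by SMAD1 and SMAD5, was in 9.59% of all windows and in 11 of the 42 (26.2%). Its own letters are G and C only, and the median GC content was 52.4% over all windows and 68.0% over the member windows. A match is a description of the letters in the window, not of binding.

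The targeted gene was lower in the group labelled d/d. Arid1a was at 7.54, 7.58 and 7.71 on the f/f arrays and at 6.98, 7.06 and 7.04 on the d/d arrays. That is a log2 difference of -0.58 ± 0.09 (SE, n = 3 per group, adjusted p = 0.026 in limma), or 0.667 times the level in f/f. Its call was lost in limma when any 1 array other than d/d 1 was left out (adjusted p up to 0.111). Whether its 1 probe set lies in the deleted part is not given in the sources used here. Of 7 genes of uterine identity all were above 2.69, the median log2 level of all probe sets, in both groups, with mean log2 levels of 9.37 and 9.19 for Hoxa10 and 10.80 and 10.74 for Esr1, in f/f and d/d. None passed in limma. An unadjusted p under 0.05 was found for 2 (28.6%, against 12.2% of all genes), both without overlap. These were Wnt7a at a difference of 1.39 (adjusted p = 0.102 in limma) and Hoxa11 at -0.42 (adjusted p = 0.132 in limma). Of 8 ovary markers, 4 were below 2.69 in both groups, among them Star at 1.87 and 1.84. Foxl2, Gdf9, Amh and Fshr were above 2.69 in both groups. Foxl2 was the highest of the 8, with mean log2 levels of 7.53 in f/f and 7.66 in d/d. Gdf9, Amh and Fshr were at 4.08, 3.15 and 2.86 in f/f. Whether any of these levels came from ovary tissue was not tested.

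The array d/d 1 stood nearer to the f/f arrays than the other two d/d arrays did. On the first principal component over all probe sets, which held 42.6% of the variance, the f/f arrays were at -29.4, -17.7 and -6.95, d/d 1 at -11.9, and d/d 2 and d/d 3 at 37.2 and 28.8. Its highest correlation was with f/f 1, and that of f/f 1 was with d/d 1 (r = 0.9946 over probe sets, which are not independent replicates). In each group array 1 had the lowest mean log2 level of 8 cell cycle genes, 5.49 on f/f 1 and 5.07 on d/d 1. For those genes d/d 1 thus lay below every f/f array. Calls of members that change without d/d 1 are given both ways.

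Of the 45 measured members, 1 was higher in d/d (Bmp5), 2 were lower (Bmp4 and Bambi) and 42 did not pass. That is 6.67% of the members, where 1.14% of all genes passed (192 genes), 0.630% higher and 0.512% lower. These counts turn on single arrays: without d/d 1 there were 6 members (1 higher, 5 lower) and 821 genes, and without any 1 of the other 5 arrays 1 member, Bambi, and 26 to 83 genes. The groups did not overlap for 17 members (37.8%), 5 higher and 12 lower, against 16.5% of all genes, 7.10% higher and 9.42% lower. At an unadjusted p under 0.05 there were 13 members (28.9%), against 12.2% of all genes. Most members lay near 0. The absolute difference was under 0.25 for 32 of them (71.1%), against 83.4% of all genes, and the median difference was -0.034, against -0.011 over all genes. The differences ran from -1.45 for Fst to 0.99 for Bmp5, and 6 members differed by more than 0.5 either way (13.3%, against 4.84% of all genes). The members had been chosen with earlier results of these data known, so these shares are descriptive and no enrichment was tested. Of the 45, 5 were below 2.69 in both groups, and the genes set beside them were not matched for level.

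**Figure D1:**
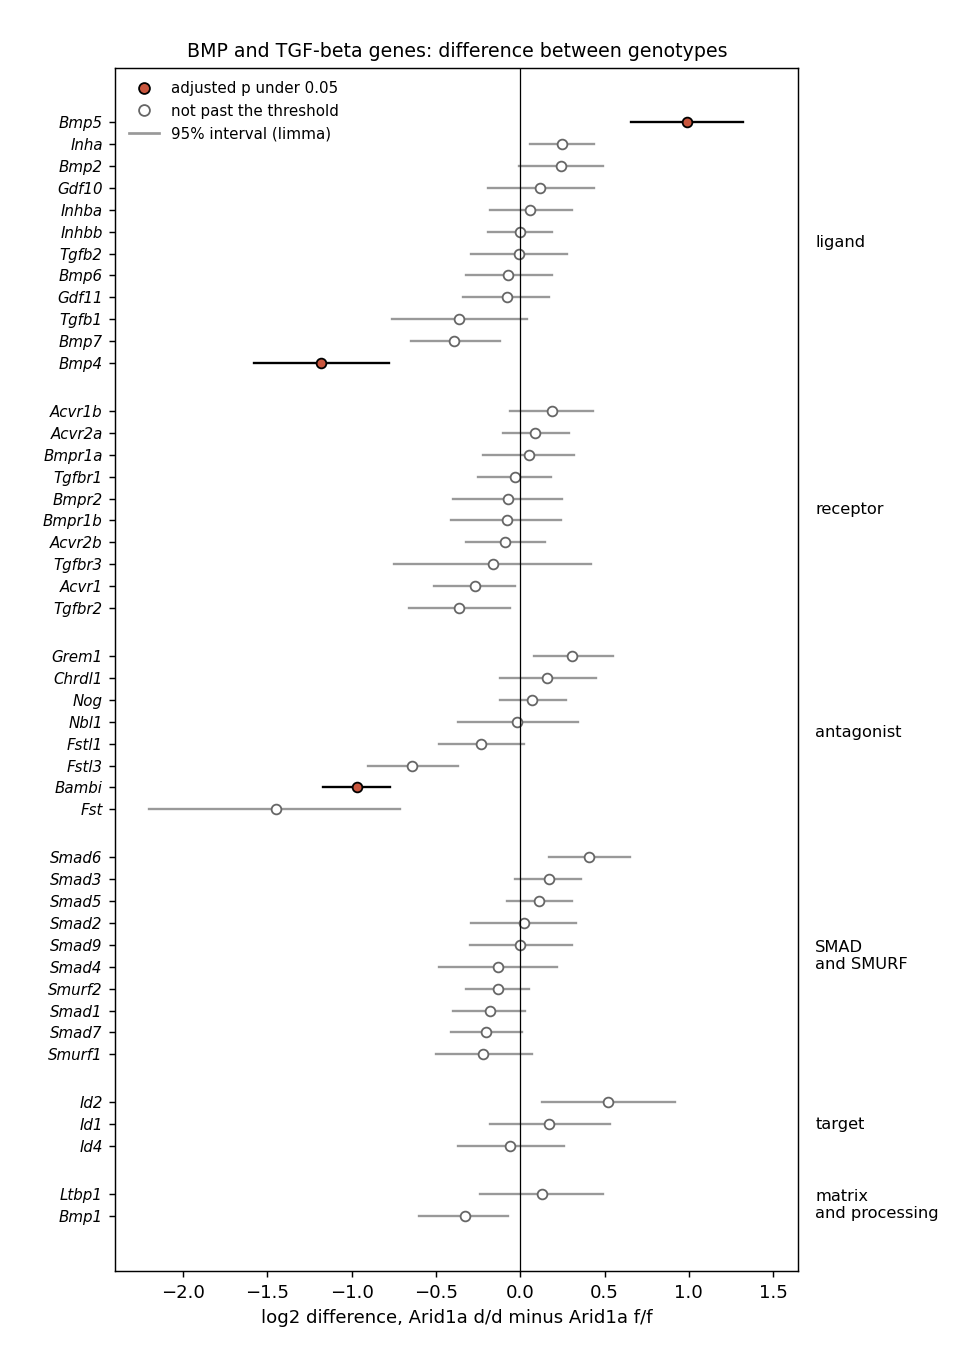
Log2 difference (d/d minus f/f) of the 45 measured members, grouped by role, with 95% intervals from limma. Filled points have an adjusted p under 0.05 over all genes: Bmp5 at 0.99 to the right of 0, and Bmp4 at -1.18 and Bambi at -0.97 to the left. Fst lies farthest left at -1.45 with a wider interval, and most receptors and SMAD genes lie close to 0.

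Among the 12 measured ligand genes 1 rose and 1 fell, and both encode BMPs. Bmp4, a BMP made by mesenchyme in many developing organs, was at 6.58, 6.75 and 6.38 on the f/f arrays and at 5.61, 5.02 and 5.54 on the d/d arrays. Every d/d array was below every f/f array, with the lowest level on d/d 2. The means were 6.57 ± 0.19 and 5.39 ± 0.32 (SD, n = 3 per group), a difference of -1.18 ± 0.17 (SE, 95% interval -1.58 to -0.78), or 2.26-fold lower, with an adjusted p of 0.026 in limma. Bmp5, a BMP of the same subfamily as BMP6 and BMP7, went the other way. It was at 3.43, 3.43 and 3.57 on the f/f arrays and at 4.15, 4.67 and 4.59 on the d/d arrays. The d/d arrays were all above the f/f arrays, with d/d 1 the nearest to them. The difference was 0.99 ± 0.14 (SE, 95% interval 0.66 to 1.32), or 1.99-fold higher, with an adjusted p of 0.025 in limma. The level of Bmp5 is from 1 of its 3 probe sets. The other two were below 2.69 in both groups and differed by 0.02 and 0.16.

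The call of either ligand gene was lost when any 1 array other than d/d 1 was left out. Leaving out f/f 1, f/f 2 or f/f 3 gave Bmp4 an adjusted p in limma of 0.0892, 0.129 or 0.0824, and leaving out d/d 2 or d/d 3 gave 0.0579 or 0.0878. For Bmp5 it was 0.0892, 0.127, 0.0897, 0.102 and 0.114 in the same order. Without d/d 1 both were further from 0, at -1.29 for Bmp4 (adjusted p = 0.00672 in limma) and 1.15 for Bmp5 (adjusted p = 0.0024 in limma). The direction was the same in each of these fits.

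Bmp7, which encodes a BMP made by epithelium in several organs, was at 5.27, 5.61 and 5.44 on the f/f arrays and at 5.17, 4.93 and 5.06 on the d/d arrays. The groups did not overlap, but the gap between f/f 1 and d/d 1 was small, and the difference of -0.39 ± 0.12 (SE) did not pass (adjusted p = 0.211 in limma). Bmp2, needed for decidualization of the stroma, was at 6.75, 6.56 and 6.69 in f/f and at 7.01, 6.98 and 6.72 in d/d. The d/d 3 value lay within the f/f range, and the difference of 0.24 ± 0.11 (SE) had a 95% interval of -0.01 to 0.49. Inha, the inhibin alpha subunit, was 0.25 higher without overlap of the groups (adjusted p = 0.26 in limma). Its partners Inhba and Inhbb, the beta subunits shared with activins, differed by 0.06 and 0.00, with a 95% interval of -0.19 to 0.19 for Inhbb. The second probe set of Inhbb varied more and differed by -0.18, with a 95% interval of -0.88 to 0.52.

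The TGF-beta ligands did not pass. All 4 probe sets of Tgfb2 lay close to 0, and the brightest differed by -0.01, with a 95% interval of -0.29 to 0.28. Tgfb1 differed by -0.36 ± 0.17 (SE) at mean levels of 2.80 and 2.45, around the median of all probe sets. Its second probe set, below 2.69 in both groups, differed by 0.07. Gdf10, also called BMP3b, differed by 0.12 (95% interval -0.19 to 0.44). Bmp6 and Gdf11 were below 2.69 in both groups and differed by -0.07 and -0.08. At so low a level RMA, the method that made these values, compresses differences.

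None of the 10 receptor genes passed in limma. At an unadjusted p under 0.05 there were 2 (20%, against 12.2% of all genes), both lower in d/d. The differences ran from -0.36 to 0.19, so all of them were under 1.3-fold. Tgfbr2, the type II receptor of TGF-beta, was at 9.18, 9.11 and 9.12 in f/f and at 9.03, 8.54 and 8.76 in d/d. The f/f arrays were tightly grouped and all 3 d/d arrays lay below them, by the least on d/d 1. The difference was -0.36 ± 0.13 (SE, adjusted p = 0.299 in limma). It passed when d/d 1 was left out, at -0.49 with an adjusted p of 0.0437 in limma. Its other two probe sets differed by -0.10 and 0.04, and the mean of all 3 differed by -0.14 (adjusted p = 0.578 in limma). Acvr1, which encodes the BMP type I receptor ALK2, was at 6.75, 6.54 and 6.57 in f/f and at 6.45, 6.39 and 6.21 in d/d. These groups did not overlap either, and the difference was -0.27 ± 0.10 (SE, adjusted p = 0.349 in limma). Acvr1b, the activin type I receptor ALK4, was at 6.97, 6.92 and 6.75 in f/f and at 7.22, 7.04 and 6.95 in d/d. Its groups overlapped, with a difference of 0.19 ± 0.11 (SE).

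For the other 7 receptors the difference was within 0.2 of 0. The BMP type I receptors Bmpr1a and Bmpr1b differed by 0.05 and -0.08, and the BMP type II receptor Bmpr2 by -0.07. The activin type II receptors Acvr2a and Acvr2b differed by 0.09 and -0.09. Tgfbr1, the type I receptor ALK5 that pairs with TGFBR2, differed by -0.03 with a 95% interval of -0.25 to 0.18, which leaves out a change of the size seen for Bmp4. Tgfbr3, the co-receptor betaglycan, had the widest spread of the receptors, at 9.36, 8.94 and 8.82 in f/f and 9.45, 8.51 and 8.67 in d/d. Its highest value was on d/d 1 and its lowest on d/d 2, and its difference of -0.16 had a 95% interval of -0.75 to 0.42.

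Of the 8 antagonist genes 1 fell, and 3 had a difference beyond 0.5, all 3 lower in d/d. Bambi, the pseudoreceptor that joins receptor complexes and blocks their signal, was at 7.50, 7.62 and 7.67 on the f/f arrays and at 6.65, 6.65 and 6.59 on the d/d arrays. Both groups were tight, and the d/d arrays sat together about 1 log2 unit below the f/f arrays, d/d 1 among them. The means were 7.60 ± 0.09 and 6.63 ± 0.04 (SD, n = 3 per group). The difference was -0.97 ± 0.08 (SE, 95% interval -1.17 to -0.77), or 1.96-fold lower, with an adjusted p of 0.00538 in limma. Bambi ranked 13 of the 16813 genes by p. Its call held in each of the 6 fits that left out 1 array, with an adjusted p in limma from 0.00304 to 0.0406 and a difference from -1.02 to -0.93.

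Fst encodes follistatin, which binds activins and, less tightly, some BMPs. It was at 6.07, 6.60 and 5.89 on the f/f arrays and at 5.45, 4.18 and 4.57 on the d/d arrays. The groups did not overlap, and d/d 1 lay near the f/f arrays while d/d 2 was the lowest. The difference of -1.45 ± 0.32 (SE), or 2.74-fold, was larger than for any other member, and the spread was wide, so that the adjusted p was 0.0957 in limma. Its second probe set gave the same picture, at 5.50, 5.98 and 5.23 in f/f and 4.76, 3.67 and 4.12 in d/d. That is a difference of -1.39, with an adjusted p of 0.0974 over all probe sets in limma. Without d/d 1 the difference of Fst was -1.81 and passed (adjusted p = 0.0044 in limma).

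Fstl3, a follistatin-like protein that also binds activin, was at 4.66, 4.57 and 4.64 in f/f and at 4.21, 3.92 and 3.82 in d/d. All d/d arrays were below the f/f arrays, and d/d 1 was again the nearest. The difference was -0.64 ± 0.11 (SE), or 1.55-fold, with an adjusted p of 0.0529 in limma, just above the threshold. It passed at -0.75 without d/d 1 (adjusted p = 0.00672 in limma), and was -0.35 with 16 added to each intensity before log2 (adjusted p = 0.0932 in limma). Fstl1, a secreted glycoprotein that binds BMP4, had a difference of -0.23 (95% interval -0.48 to 0.02), and its groups did not overlap. Nog, Chrdl1 and Nbl1, antagonists of BMPs, differed by 0.07, 0.16 and -0.02. The 4 probe sets of Chrdl1 were all above 0, from 0.16 to 0.40, and none passed in limma, with 2 at an unadjusted p under 0.05. Grem1, which encodes the BMP antagonist gremlin 1, was 0.31 higher without overlap (adjusted p = 0.254 in limma). Grem1 and Nog were below 2.69 in both groups.

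**Figure D2:**
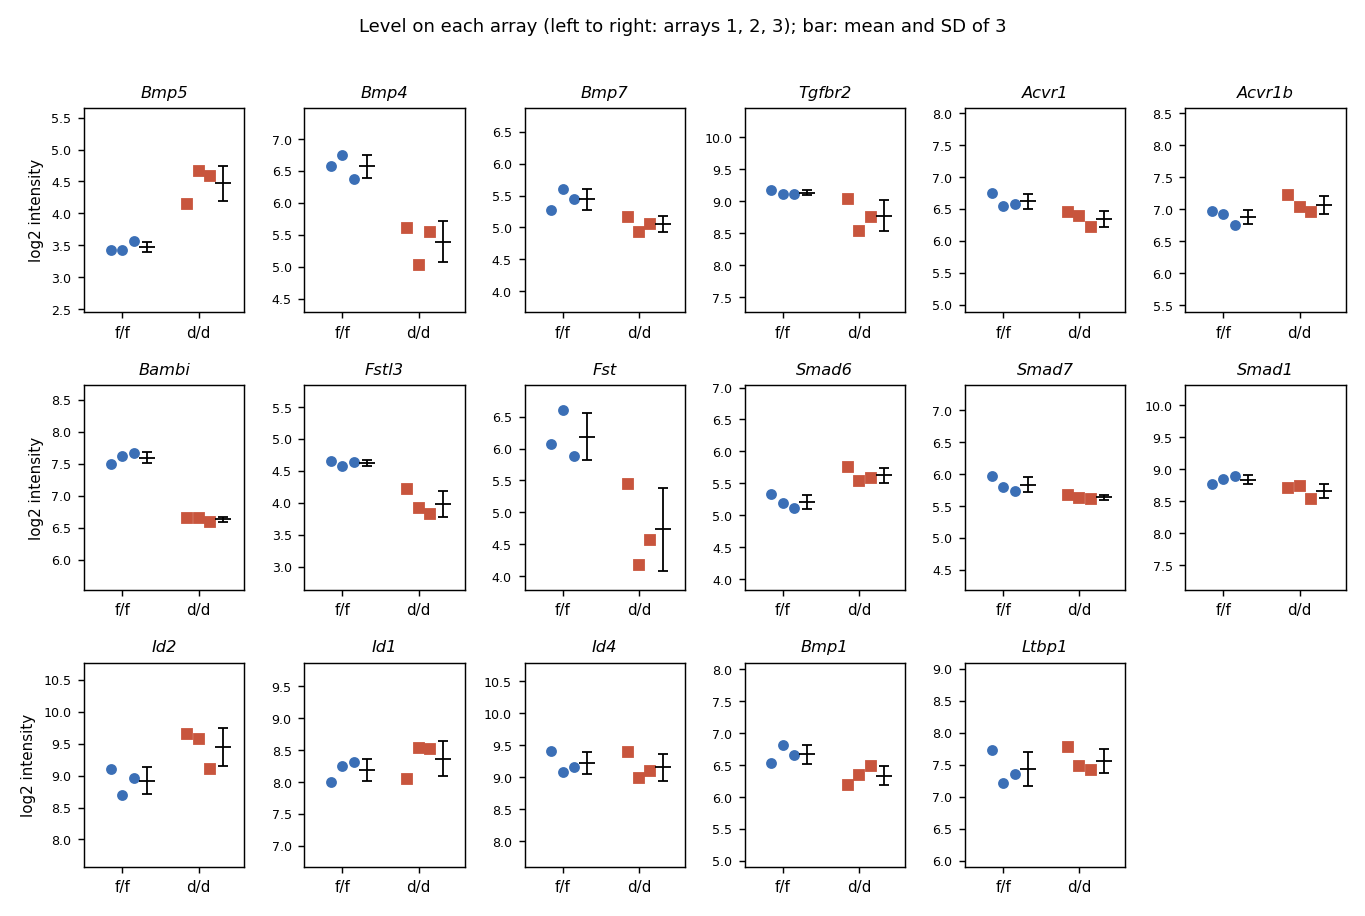
Log2 level of 17 members on each array, with the 3 points of a group (circles f/f, squares d/d) for arrays 1, 2 and 3 from left to right, and a bar for the mean ± SD. Each panel spans the same 3.2 log2 units. Bambi is tight in both groups (7.50 to 7.67 in f/f, 6.59 to 6.65 in d/d), while Fst on d/d 1 (5.45) lies close to the lowest f/f array (5.89).

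Inside the cell, none of the 10 SMAD and SMURF genes passed in limma. An unadjusted p under 0.05 was found for 1 (10%, against 12.2% of all genes). This was Smad6, an inhibitory SMAD that acts mainly on BMP receptors and is itself induced by BMP signalling. Smad6 was at 5.33, 5.20 and 5.11 in f/f and at 5.76, 5.53 and 5.58 in d/d. All d/d arrays were above the f/f arrays. The difference of 0.41 ± 0.10 (SE), or 1.33-fold, had an adjusted p of 0.131 in limma. Smad7, the inhibitory SMAD of both branches, was at 5.97, 5.80 and 5.74 in f/f and at 5.68, 5.62 and 5.61 in d/d. Its groups did not overlap, but the difference was -0.20 ± 0.09 (SE), and its second probe set differed by -0.03, with a mean of -0.12 over both.

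By their brightest probe sets, the receptor-regulated SMADs of the BMP branch differed little. Smad1 was at 8.77, 8.85 and 8.90 in f/f and at 8.70, 8.74 and 8.53 in d/d, a difference of -0.18 ± 0.09 (SE) without overlap. The brightest probe set of Smad5 differed by 0.11. Its dimmer ones differed by 0.32 and 0.48, each at an unadjusted p under 0.05. Over all probe sets neither passed (adjusted p = 0.462 and 0.468 in limma). Smad9 was below 2.69 in both groups and differed by 0.00. In the TGF-beta and activin branch Smad2 differed by 0.02 (95% interval -0.29 to 0.33) and Smad3 by 0.17 (95% interval -0.03 to 0.36, no overlap). Smad4, shared by both branches, differed by -0.13. Smurf1 and Smurf2, ubiquitin ligases that mark receptors and SMADs for degradation, differed by -0.22 and -0.13. The dimmer probe sets of Smurf2 went the other way, at 0.09 and 0.15. For all of these the levels of mRNA are measured, not the phosphorylation that carries the signal.

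The 3 measured Id genes, which encode inhibitors of bHLH transcription factors and are direct targets of BMP-activated SMADs, did not pass in limma. Of them 1 had an unadjusted p under 0.05 (33.3%, against 12.2% of all genes). Id1 was at 8.0, 8.25 and 8.32 in f/f and at 8.05, 8.54 and 8.51 in d/d. The groups overlapped, and the difference of 0.17 ± 0.15 (SE) had a 95% interval of -0.18 to 0.53. It was 0.33 without d/d 1 and 0.08 without f/f 1. Id2 was at 9.10, 8.69 and 8.97 in f/f and at 9.65, 9.58 and 9.10 in d/d. The value on d/d 3 equalled that on f/f 1 to 2 decimals. The difference of 0.52 ± 0.17 (SE), or 1.44-fold, had an adjusted p of 0.258 in limma, and its other probe sets differed by 0.26 and 0.33. Id4 was at 9.41, 9.08 and 9.16 in f/f and at 9.39, 8.98 and 9.10 in d/d. The groups overlapped over nearly their whole range, and the difference was -0.06 ± 0.14 (SE).

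Of the matrix and processing factors, Bmp1 and Ltbp1 were measured and did not pass in limma. An unadjusted p under 0.05 was found for 1 (50%, against 12.2% of all genes). Bmp1 is a metalloprotease that cleaves procollagen and chordin, not a BMP ligand. Bmp1 was at 6.53, 6.82 and 6.66 in f/f and at 6.19, 6.34 and 6.48 in d/d. The groups did not overlap, and d/d 3 came close to f/f 1. The difference was -0.33 ± 0.11 (SE, adjusted p = 0.283 in limma), and its other two, dimmer probe sets differed by -0.31 and 0.00. The mean over all 3 differed by -0.21 (adjusted p = 0.26 in limma). Ltbp1, which holds latent TGF-beta in the matrix, was at 7.73, 7.22 and 7.36 in f/f and at 7.78, 7.48 and 7.42 in d/d. The highest value of each group was on array 1, and the difference was 0.13 ± 0.16 (SE).

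**Figure D3:**
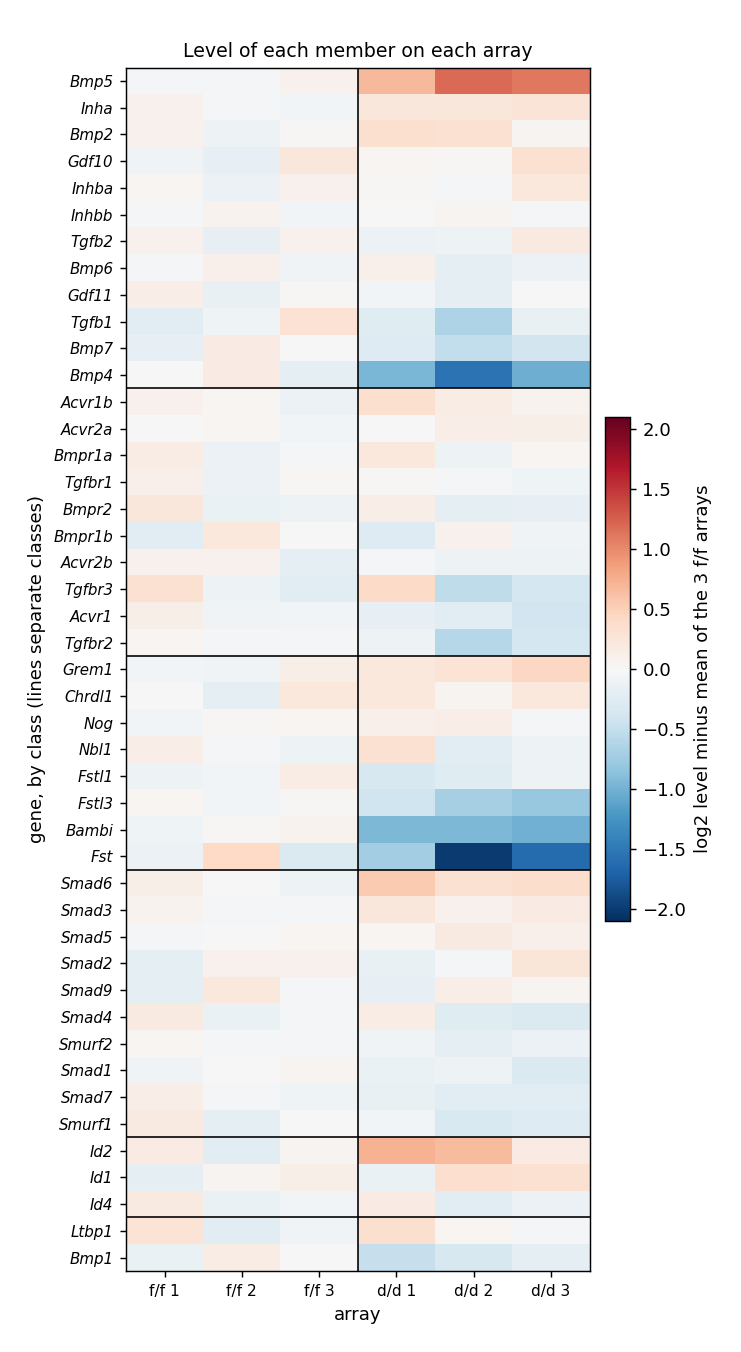
Heat map of the 45 members on the 6 arrays, coloured by log2 level minus the mean of the f/f arrays on a scale of ±2.1. Fst, Bmp4 and Bambi are the darkest of the members below 0 in d/d and Bmp5 of those above it. Fst on d/d 1 is paler than on d/d 2 and d/d 3.

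Member by member, d/d 1 was the d/d array nearest to the f/f mean for 20 of the 45 members (44.4%), against 6855 of the 16813 genes (40.8%). It was the nearest for Bmp5, Fst and Fstl3. For Bmp4 the nearest was also d/d 1, at 5.61, with d/d 3 at 5.54. For Bambi d/d 1 and d/d 2 were both at 6.65.

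Probe sets of 1 gene share a transcript and were not counted as replicates. There were 16 members with 1 probe set and 29 with several, up to 6 for Bmpr1a. Over all probe sets 3 of the 95 passed, those of Bmp4 (adjusted p = 0.0291 in limma), Bmp5 (0.0282) and Bambi (0.00573). That compares with 0.524% of all 41420 probe sets. Of the 95, 24 were below 2.69 in both groups. Bmp4, Bambi and Fstl3 each rest on 1 probe set, so no second one bears on them.

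**Figure D4:**
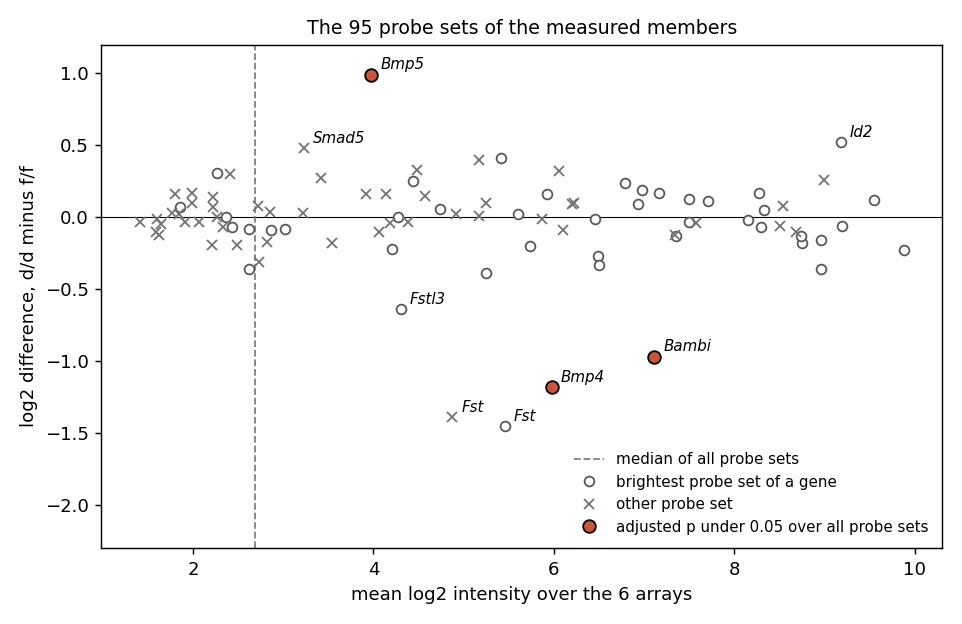
Log2 difference (d/d minus f/f) of the 95 member probe sets against their mean log2 level over the 6 arrays, with a dashed line at 2.69, the median of all probe sets. Filled points passed in limma over all probe sets. Both Fst probe sets lie together near -1.4, whereas 1 Bmp5 probe set lies at 0.99 and the other two near 0, left of the dashed line.

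Other genes of the pathway were taken from 5 lists, also chosen with earlier results of these data known. Of their 82 genes, 66 were measured. Of these 1 was higher, 1 was lower and 64 did not pass in limma, which is 3.03% against 1.14% of all genes. The median difference was -0.072, against -0.011 over all genes. Of the 66, 45 were below 0, where 8979 of the 16813 genes were, and the groups did not overlap for 12 (18.2%, against 16.5% of all genes). Dlx5, a homeobox gene that BMPs induce in several tissues, was at 5.92, 5.89 and 5.93 in f/f and at 6.63, 7.26 and 6.92 in d/d. The d/d arrays were all above a very tight f/f group, with a difference of 1.03 ± 0.15 (SE, adjusted p = 0.0274 in limma). Ltbp4, which like Ltbp1 binds latent TGF-beta and also takes part in elastic fibre assembly, was at 6.68, 6.81 and 6.75 in f/f and at 6.11, 5.48 and 5.86 in d/d. The difference was -0.93 ± 0.15 (SE, adjusted p = 0.0422 in limma), with no overlap of the groups. When 1 array was left out, each of these calls held without d/d 1 and was lost in the other 5 fits. The adjusted p in limma then ran from 0.0584 (without d/d 2) to 0.139 (without f/f 2) for Dlx5. For Ltbp4 it ran from 0.0752 (without d/d 2) to 0.176 (without f/f 2). With 16 added before log2 neither passed (adjusted p = 0.0978 for both in limma).

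Of the 11 further target genes measured, 1 was higher and 10 did not pass. Msx2, another homeobox target of BMPs, was at 3.87, 4.27 and 4.30 in f/f and at 4.18, 5.81 and 5.60 in d/d. On d/d 1 it was within the f/f range, and the difference of 1.05 ± 0.39 (SE) did not pass (adjusted p = 0.326 in limma). Without d/d 1 it passed at 1.56 (adjusted p = 0.00255 in limma), whereas the mean of its probe sets differed by 0.57 over all arrays (adjusted p = 0.376 in limma). Tgfbi, a matrix protein named for its induction by TGF-beta, differed by 0.49 without overlap (adjusted p = 0.127 in limma), and Tsc22d1 by -0.09. Of the 22 extracellular regulators, Ltbp4 alone passed. The matrix proteoglycans Dcn and Bgn, which bind TGF-beta, differed by -0.76 and -0.45, and the protease Htra1 by -0.34. Dcn is also a stromal marker.

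None of the 7 further receptors and co-receptors passed in limma, with 2 at an unadjusted p under 0.05 (28.6%, against 12.2% of all genes). Amhr2, the receptor of anti-Müllerian hormone, was at 4.99, 5.13 and 5.56 in f/f and at 4.49, 4.34 and 4.76 in d/d. Its groups did not overlap, and the difference was -0.70 ± 0.17 (SE, adjusted p = 0.123 in limma). Acvrl1 and Eng, the type I receptor ALK1 and the co-receptor endoglin of endothelial cells, differed by -0.53 and -0.34, and the co-receptor Rgmb by -0.27. None of the 12 further ligands passed in limma, with 1 at an unadjusted p under 0.05 (8.33%, against 12.2% of all genes). Inhbc, Nodal, Gdf2 and Inhbe differed by -0.31, -0.28, -0.08 and 0.09. Inhbc, Nodal and Inhbe were below 2.69 in both groups, as were most of the 12, and RMA compresses differences there. None of the 14 further transducers and nuclear partners passed in limma, and 0 had an unadjusted p under 0.05 (against 12.2% of all genes). The corepressor Ski differed by -0.20, Tgif1, also a corepressor, by 0.16, and Pmepa1 and Nedd4l, which limit SMAD or receptor levels, by -0.16 and -0.11.

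Markers of several cell types moved with the genotype on these arrays. Summed intensities of 6 epithelial markers were 2477 to 3084 in f/f and 3801 to 4008 in d/d. Of these Cdh1 was higher by 1.00 (adjusted p = 0.0314 in limma) and 4 of the 6 did not overlap. Epcam and Cldn3 overlapped between the groups, at 0.14 and -0.18, and Cldn3 was the only one of the list below 0. For 7 gland markers the sums were 80 to 130 and 43 to 45. Foxa2 and Cxcl15 fell, with differences of -1.41 and -3.71 (adjusted p = 0.0116 and 0.00538 in limma), the largest differences of the list. Cxcl15 was below 2.69 on every d/d array (1.72 to 2.13), so the size of its difference is not firm. Of the other 5, Prss28 did not overlap, at -0.27, and Prss29, Ttr, Lif and Wfdc3 overlapped between the groups. In all, 3 of the 7 were below 2.69 in both groups. For 9 stromal markers the sums were 14440 to 15278 and 11542 to 13602, with all 9 differences below 0 and Thy1 past the threshold at -1.06 (adjusted p = 0.0155 in limma). With 1 array left out, the call of Cxcl15 held in all 6 fits. Those of Foxa2 and Thy1 held without f/f 1 or d/d 1 only, and that of Cdh1 without d/d 1 only. With 16 added before log2 none of the 4 passed in limma, at -1.72 for Cxcl15 (adjusted p = 0.0882), -0.66 for Foxa2 (0.0731), -0.96 for Thy1 (0.0619) and 0.96 for Cdh1 (0.0965). All 4 had an unadjusted p under 0.05 there.

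For 5 endothelial markers the sums were 725 to 777 in f/f and 421 to 581 in d/d, with all 5 below 0. For 6 fat markers they were 591 to 924 and 196 to 482, with all 6 lower without overlap. None of these 11 passed in limma. At an unadjusted p under 0.05 there were 4 endothelial and 5 fat markers (80% and 83.3%, against 12.2% of all genes). The ranges overlapped for 7 smooth muscle markers (3938 to 4439 and 3186 to 4197), 7 uterine identity genes (3414 to 3957 and 3386 to 3455) and 8 cell cycle genes (462 to 902 and 386 to 1202). They also overlapped for 5 mesothelial markers (210 to 224 and 221 to 242), 8 ovary markers (213 to 247 and 221 to 279) and 4 oviduct markers (53 to 71 and 28 to 123). Foxl2, the highest of the 8 ovary markers, weighs most in their sum. Among the oviduct markers Ovgp1 differed between the d/d arrays, at 4.15, 4.07 and 6.79 on d/d 1, d/d 2 and d/d 3, against 5.42 to 5.91 in f/f. The sums of 7 leukocyte markers lay slightly lower in d/d (413 to 418 and 369 to 406). The epithelial, gland, stromal, endothelial and fat values moved in the same comparison as Bmp4, Bmp5, Bambi, Fst and Fstl3, and their part in those results was not tested.

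**Figure D5:**
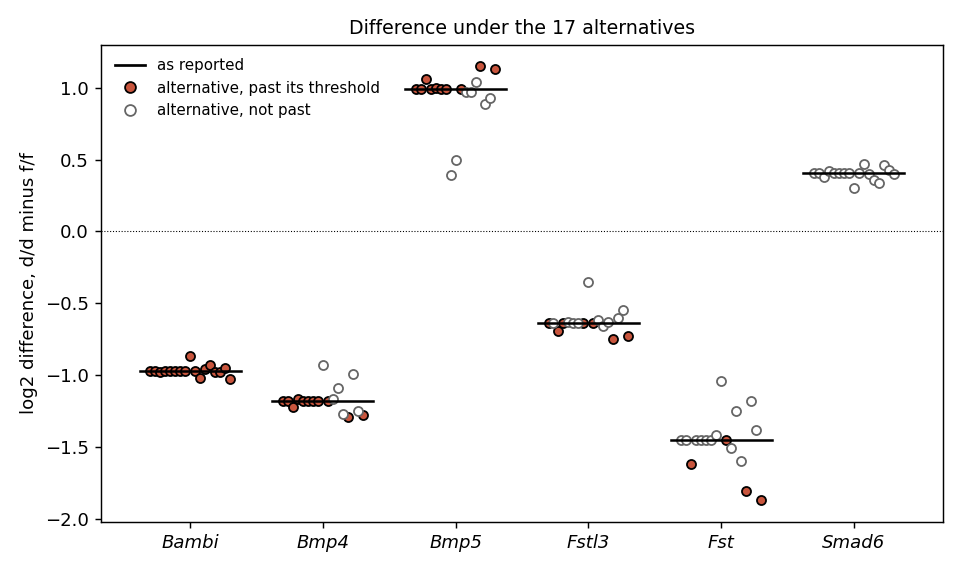
Log2 difference (d/d minus f/f) of Bambi, Bmp4, Bmp5, Fstl3, Fst and Smad6 as reported and under 17 alternatives, with filled points where the value passed the threshold of that alternative. Bambi is filled under each alternative. Bmp4 and Bmp5 are open in 5 of the 6 fits without 1 array, and Bmp5 falls to 0.39 when all its probe sets are averaged.

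Of the members, Bambi alone kept its call under all 17 alternatives. Averaging all probe sets of a gene gave Bmp5 a difference of 0.39 (adjusted p = 0.125 in limma), its probe sets differing by 0.99, 0.16 and 0.02. Adding 16 to each intensity before log2, which shrinks differences at low levels, gave 0.50 for Bmp5 (adjusted p = 0.103 in limma) and -0.93 for Bmp4 (adjusted p = 0.0832 in limma). With array weights, which count an array less the more it departs from its group, Fst passed at -1.62 (adjusted p = 0.0312 in limma) and Fstl3 at -0.69 (adjusted p = 0.019 in limma). Fstl3 also passed with the replicate number as a block (adjusted p = 0.0315 in limma), with repeated quantile normalization (0.0445) and with the mean of probe sets (0.044).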

How the data were processed

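The labels name 6 samples of total uterine RNA, 3 per genotype, each hybridised to 1 Affymetrix array. The authors deposited 1 linear intensity per probe set and array. RMA, which adjusts for background, equalises the arrays' distributions and combines the probes of a set, is named by the submitters' processing notes, with no version. It compresses differences at the dim end. The median linear intensity of an array lay between 6.34 and 6.59. No genome build or scan date is given in the sources used here, and the number of arrays limits the precision.

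From these values log2 was taken with no constant. Of the probe sets 31562 had 1 symbol in the platform annotation, 830 had several and 9028 had none, and a gene was its brightest probe set with 1 symbol. The test was limma's moderated one (version 3.58.1, R 4.3.3, 2-sided, no covariate, 4 residual and 3.66 prior degrees of freedom), with Benjamini-Hochberg adjustment over all genes or all probe sets. The scripts were tested on simulated data.

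The members and lists were chosen with earlier results of these data known. Array values are given for members past the threshold and for the 3 of smallest p in each role, the other members by their difference, and of each further list up to 4 genes. Bmp2 and Tgfbr3 were given by array after their values were seen. There were 17 alternatives: 6 that left out 1 array and 11 other settings, among them the replicate number as a block, an intensity trend, array weights, median centring, a filter at the 40th percentile of level, and a threshold of 0.10.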

Additional observations from a re-analysis of the deposited data

How the results depend on the processing

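Over the 17 alternatives, 262 of 289 values of described members kept their direction and side of the threshold, 13 lost the call, 12 gained it and 2 reversed: Id4 was at 0.034 without f/f replicate 1 and at 0.027 without d/d replicate 2, within a range of -0.18 to 0.034 when 1 array was left out. The replicate numbers were not taken as pairs, since arrays of equal number were not the closest partners throughout. Deviations from the group means correlated at 0.461, 0.0228 and 0.178 between arrays of equal number. Arrays f/f 1 and d/d 1 were each other's closest partner (0.461), and that of d/d 3 was f/f 3 (0.178). The closest partner of f/f 2 was d/d 3 (0.16), that of f/f 3 being d/d 2 (0.299). Whether arrays of equal number share an effect was not tested. The replicate block gave 457 genes past the threshold against 192, with 1 member higher and 3 lower. Array weights gave 381 genes and 4 members lower. Adding 16 before log2 gave 34 genes, 0 members higher in limma (7 at an unadjusted p under 0.05), 1 lower and 1 member probe set. The mean of all probe sets gave 0 members higher in limma (8 unadjusted). A threshold of 0.10, looser by construction, gave 403 genes, 4 members lower and 5 member probe sets. Leaving out both arrays numbered 1, chosen after seeing the data, gave 540 genes, 4 members lower and 6 member probe sets. Leaving out 1 array at a time gave 26 to 821 genes, 0 to 1 members higher (3 to 5 unadjusted where 0), 1 to 5 lower and 1 to 6 member probe sets. The call of Arid1a held without d/d 1 (adjusted p = 0.0232 in limma) and was lost without each of the other 5 arrays, with an adjusted p up to 0.111. Beyond the looser threshold, the cause of these shifts was not tested. The median over all genes stayed within 0.1 of 0 in each setting. The signal of members below the median of all probe sets, such as Nog, Grem1 and Smad9, limits what their intervals show, since RMA compresses differences there.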
